A study of Mus musculus with 2 samples.

Results

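The genes described here encode enzymes that write or erase histone acetylation and methylation, together with bromodomain readers and chromodomain helicases. The rule reads names and no values, and was set with earlier results of these data known. It takes every gene whose single symbol in the array's annotation begins with Kat, Hdac, Brd, Kmt, Setd, Kdm or Chd followed by a digit. The rule took in 70 of 19938 named genes, through 107 of 21789 probe sets with 1 gene symbol, and where a gene had several probe sets the one with the highest mean signal was read. By family they were 8 Kat, 11 Hdac, 7 Brd, 8 Kmt, 8 Setd, 18 Kdm and 10 Chd genes.

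The cells were neural precursor cells from the forebrain of Jcl:ICR mouse embryos at day E11.5. One culture received a control retrovirus and the other a retrovirus carrying HMGN1, both with FGF2 and EGF present. Both were replated 3 days after infection on poly-D-lysine, kept for 1 day without FGF2 and EGF, and harvested for total RNA. Each virus has 1 array, so no test between the viruses was possible, no p-value is given, and every difference describes these 2 RNA samples. The share of cells infected, the promoter that drives HMGN1 and the number of embryos pooled are not given in the sources used here.

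Acetyl groups are placed on histone lysines by acetyltransferases (KAT), taken off by deacetylases (HDAC) and bound by bromodomains. Lysine methylation is placed by SET domain enzymes of the KMT and SETD families and removed by KDM demethylases, each with its own preferred lysines. CHD proteins are ATP-driven remodellers that move or eject nucleosomes. HMGN1 binds nucleosomes without preference for DNA sequence, competes with linker histone and is known to influence how accessible chromatin is to such enzymes. Several of these genes, among them Chd7, Chd8, Kmt2d, Kat6b and Kdm6a, are known for human neurodevelopmental disorders.

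Values are probe set intensities on the linear scale of the deposited table. A difference is HMGN1 virus minus control virus on the scale log2(intensity + 16), which understates the change of dim genes. The detection floor was an intensity of 85.9, under which 95% of the 1035 olfactory receptor probe sets lay, and a gene's mean over both arrays had to reach it. This left 11325 genes of the array and 67 of the 70 genes described here. The undetected members were Brd8dc (21.4 and 20.03 with control and HMGN1 virus), the testis-biased demethylase gene Kdm4d (49.3 and 54.1) and Setd4 (59.6 and 69.5). Closest above the floor stood Chd1l (92.1 and 88.1), Kat2b and Kdm8. Intensities of different probe sets do not rank genes by RNA amount, and only the 2 arrays are compared with each other. In these bulk cultures, fewer cells of a type and less RNA per cell cannot be told apart.

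Hmgn1 itself read 230 on the control array and 348 after the HMGN1 virus (0.57 on the log2 scale), in the direction of the labels. All 10 listed neural precursor markers were detected, with summed intensities of 25208 and 24975. All 7 neuron markers (summed 7751 and 8038) and all 7 oligodendrocyte lineage markers (5917 and 6037) were also detected, and 4 of 5 astrocyte markers (1319 and 1610 with the undetected S100b included). Single markers, named after their values were seen, differed by more than any member did. Of the precursor markers Sox1 read 601 and 467 (-0.35) and Prom1 202 and 169 (-0.24), while Fabp7 and Vim made up most of the sum and were within 0.02 of 0. Gfap, an astrocyte gene, had the highest difference of all 11325 detected genes (406 and 615, 0.58), and Aqp4 (0.32), Gpr17 (0.33) and Mbp (0.28) were higher too. Within the lists, however, markers went both ways. Of the detected markers 4 of 10 precursor, 4 of 7 neuron, 4 of 7 oligodendrocyte lineage and 4 of 4 astrocyte genes were higher. Over all detected genes that share was 60.1%. Olig2 (-0.16), Tubb3 (-0.17) and Rbfox3 (-0.15) were lower, and Syt1 (0.27), Stmn2 (0.22) and Pax6 (0.11) higher. Of the other cell types, 2 of 8 microglia and macrophage markers, 0 of 7 endothelial, 5 of 8 mesenchyme and pericyte and 0 of 3 erythroid markers were detected. The part of these cell types in the differences below was not tested.

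With a size of 0.32 on the log2 scale, 0 of 67 detected members were higher and 0 lower. Of all detected genes 0.494% were higher and 0.521% lower by that much, and of the 3254 detected genes in the members' middle signal range (intensities of 290 to 695) 0.277% and 0.492%. With shares this small over all genes, the count of 0 says nothing particular to the members. At 1.5-fold the shares over all detected genes were 0% higher and 0.0706% lower (0% and 0.154% in that signal range), with 0 members either way. A smaller size, 1.1-fold, was passed upward by 5 members (7.46%), beside 13.1% of all detected genes and 13.6% in the signal range. It was passed downward by 1 member (1.49%), beside 7.2% and 3.9%. Differences ran from -0.16 for Kdm8 to 0.20 for Chd2, and no member lay outside the middle 95% of detected genes, which spanned -0.21 to 0.23. The SD of the members' differences was 0.0781, against 0.111 for all detected genes and 0.0891 between different probe sets of 1 gene over 683 genes. In 44 of the 67 (65.7%) the difference was no larger than this last SD, as it was in 59.1% of all detected genes. Small differences within the set are therefore given as values and counts.

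**Figure D1:**
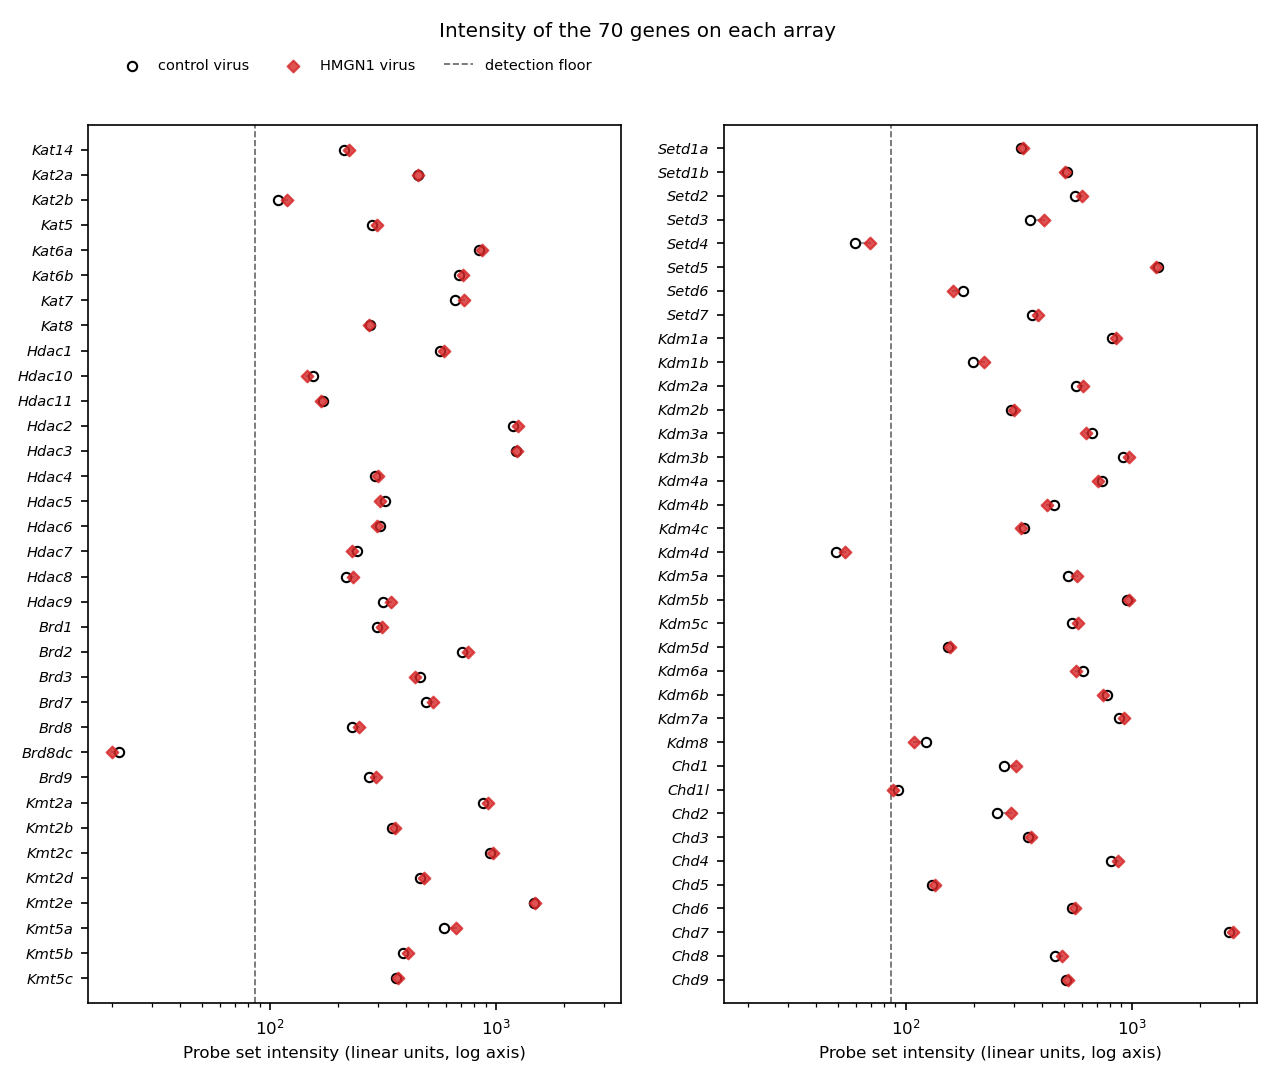
Probe set intensity of all 70 genes on the control virus array (open circles) and the HMGN1 virus array (red diamonds), on a log axis, grouped by family. The paired symbols nearly touch for most genes, and only Brd8dc, Kdm4d and Setd4 lie left of the detection floor of 85.9 (dashed line).

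By sign alone, 49 detected members were higher with the HMGN1 virus and 18 lower. That is 73.1% higher, beside 60.1% of all detected genes and 65.7% of the detected genes in the members' middle signal range. The members' median difference was 0.048, that of all detected genes 0.027 and that of the genes in this signal range 0.039. Members also came from long genes: their median span from annotated start to end was 47.2 kb, against 23.9 kb over all detected genes. The 3157 detected genes with a span of 26.2 to 79.2 kb, the members' middle range, had a median of 0.045 and were higher in 67.7%. With the trend of difference on gene span removed, the members' median was 0.0050 and 36 of 67 (53.7%) were higher. In that setting 50.7% of all detected genes with a span were higher, with a median of 0.0014. The share of higher members thus depends on that setting, as does the share over all genes.

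**Figure D2:**
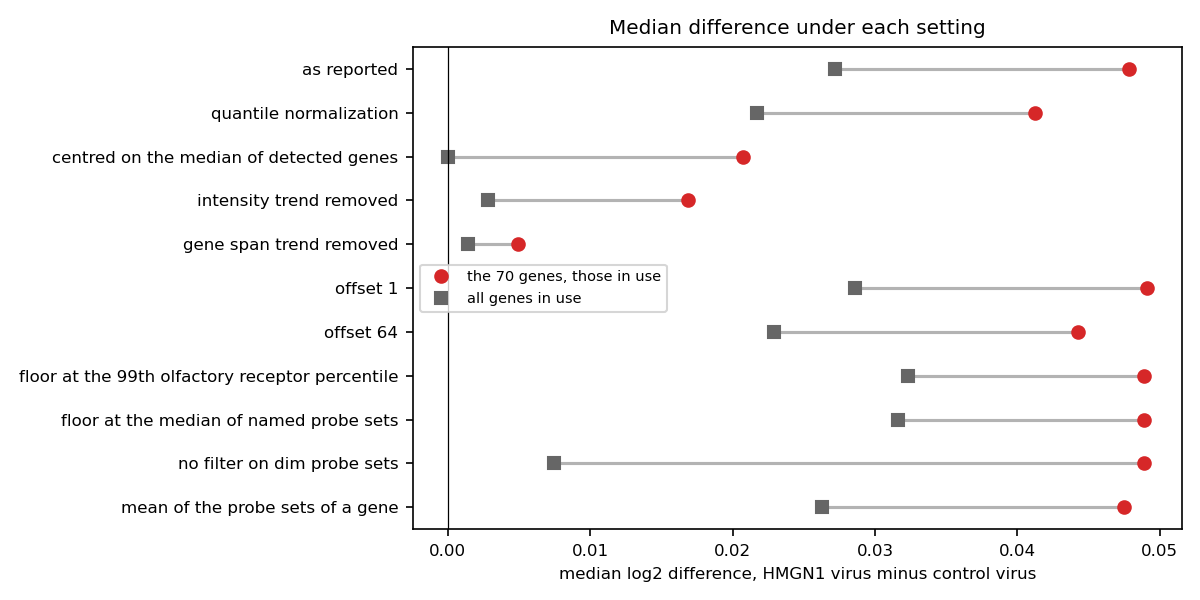
Median log2 difference, HMGN1 virus minus control virus, of the members (red circles) and of all genes in use (grey squares) as reported and under 10 other settings. The members' median exceeds that of all genes in each setting, by 0.0035 with the gene span trend removed and 0.041 with no filter on dim probe sets.

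The members farthest from 0 were Chd2 and Setd3 above and Kdm8 and Setd6 below. Chd2, a remodeller gene linked to epilepsy, read 253 and 294 with the control and HMGN1 virus (0.20, the 96.1 percentile of detected genes). Setd3, which encodes the histidine methyltransferase of actin, read 356 and 409.7 (0.19), but its second probe set read 248 and 257 (0.048), so the probe sets disagree on the size. Kdm8, whose product acts as a hydroxylase in addition to its proposed demethylase role, read 123 and 108 (-0.16, the 4.96 percentile). Setd6, which methylates the NF-kappaB subunit RelA, read 179 and 162 (-0.13).

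Promoter sequence was at hand in RefSeq (GRCm38.p6) for 52 of the 70 genes, but not for Chd2 or Chd1. The 250 bases before the first listed start are shown for the 2 highest and 2 lowest detected members with an entry, so that their promoters can be set beside their opposite differences. Capitals mark the GC box, spelled GGGCGG, the CCAAT box, spelled as its name says, and the TATA box, spelled TATAAA. Both strands were searched, and overlapping GC boxes run together.
Setd3, chr12:108179285-108179534, minus strand: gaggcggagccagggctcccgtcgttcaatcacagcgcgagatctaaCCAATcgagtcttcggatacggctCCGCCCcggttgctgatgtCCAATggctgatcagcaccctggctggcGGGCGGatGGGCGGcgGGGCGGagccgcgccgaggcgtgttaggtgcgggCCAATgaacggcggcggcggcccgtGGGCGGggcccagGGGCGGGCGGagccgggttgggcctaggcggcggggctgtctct
Kmt5a, chr5:124439680-124439929, plus strand: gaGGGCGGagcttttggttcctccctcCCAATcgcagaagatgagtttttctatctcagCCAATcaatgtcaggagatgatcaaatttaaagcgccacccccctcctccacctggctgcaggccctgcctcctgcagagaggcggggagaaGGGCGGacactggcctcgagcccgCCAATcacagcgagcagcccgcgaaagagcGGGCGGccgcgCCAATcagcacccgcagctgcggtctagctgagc
Kdm8, chr7:125444370-125444619, plus strand: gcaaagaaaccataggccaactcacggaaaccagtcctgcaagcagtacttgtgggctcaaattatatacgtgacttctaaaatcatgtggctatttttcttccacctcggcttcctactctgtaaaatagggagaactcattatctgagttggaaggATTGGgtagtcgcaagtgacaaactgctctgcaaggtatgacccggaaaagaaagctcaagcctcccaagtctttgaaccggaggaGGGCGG
Setd6, chr8:95715663-95715912, plus strand: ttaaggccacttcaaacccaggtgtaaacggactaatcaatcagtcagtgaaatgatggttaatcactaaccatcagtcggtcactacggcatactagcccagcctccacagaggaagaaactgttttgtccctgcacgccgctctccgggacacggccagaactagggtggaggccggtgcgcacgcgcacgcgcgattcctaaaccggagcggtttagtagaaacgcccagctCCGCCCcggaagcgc

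Setd3 had 7 GC boxes and 3 CCAAT boxes in this stretch and Kmt5a 3 and 4, whereas Kdm8 had 1 of each and Setd6 had 1 GC box and 0 CCAAT boxes. None of the 4 had a TATA box. RefSeq lists 2 starts for Setd3 and 3 for Kmt5a, and which one the cells used is not known from these data. Among the 52 members with an entry, 61.5% held a GC box, 40.4% a CCAAT box and 5.77% a TATA box. The shares were 61.1%, 36.8% and 6.16% over 9058 detected genes and 32.9%, 34.5% and 13.0% over all 27025 genes with a window of this length. The median ratio of observed to expected CpG was 0.800 in the members, 0.746 in detected genes and 0.378 in all genes. These members thus had the CpG-rich promoters without a TATA box that most detected genes had, and a match to a motif is a description only. Whether the number of motifs goes with the difference was not tested.

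**Figure D3:**
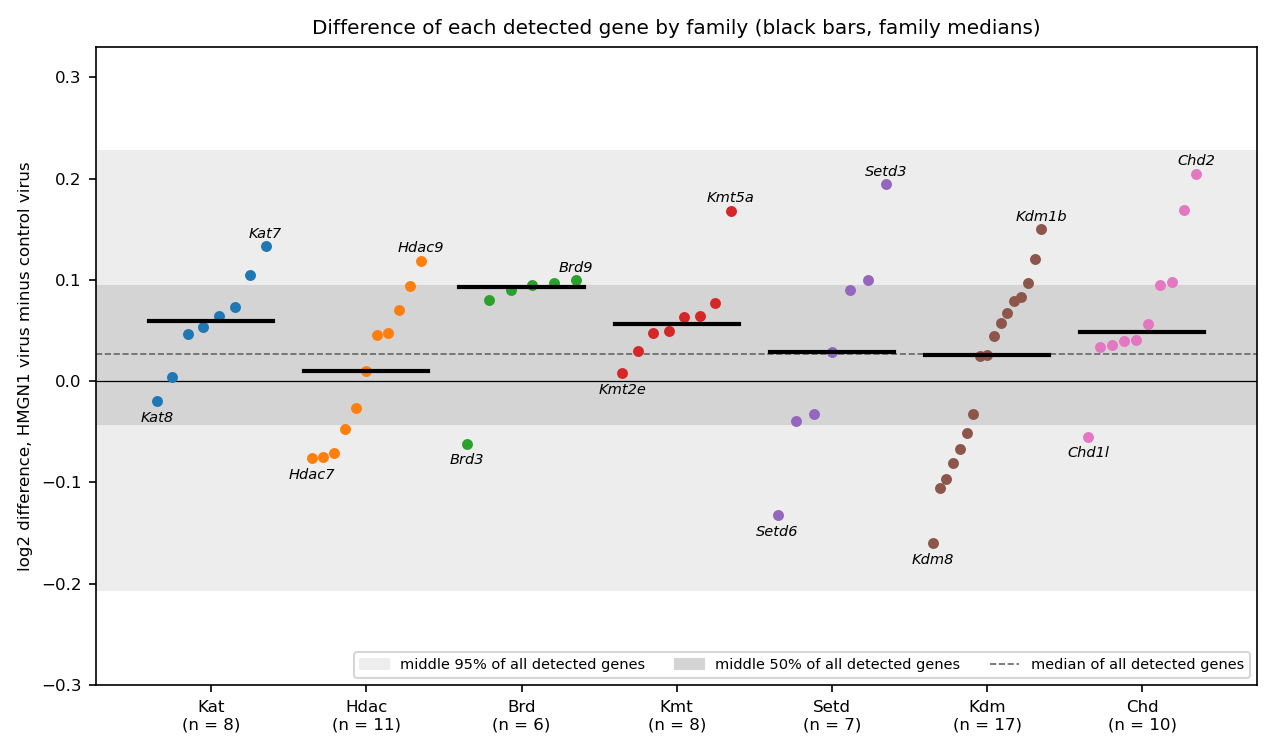
Log2 difference, HMGN1 virus minus control virus, of each detected gene by family, with black bars at the family medians and the highest and lowest gene of each family named. Every point lies within the pale band that holds the middle 95% of all detected genes, and the Kdm and Setd genes spread from -0.16 to 0.19.

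Of the 8 acetyltransferase genes 7 were higher and 1 lower, beside 60.1% higher over all detected genes. Their median was 0.059, against 0.027 for all detected genes, and was 0.032 when the arrays were centred and 0.012 with the gene span trend removed. Kat7 (HBO1, an H3 acetyltransferase tied to replication origins) was highest at 658 and 723 (0.13). It was followed by Kat2b (PCAF) at 109 and 118 (0.10), a dim probe set, while its paralog Kat2a (GCN5), the other catalytic subunit of the SAGA complex, read 450.4 and 452 (0.0037, below 0 under 4 scalings). The pair Kat6a (MOZ) and Kat6b (MORF), both needed for brain and stem cell development, differed little, at 840.4 and 868 (0.046, below 0 with the gene span trend removed) and 686 and 713 (0.054). Kat5 (TIP60) read 281 and 297 (0.074), and Kat14, of the ATAC complex, 213 and 224 (0.064). Kat8 (MOF), the H4K16 acetyltransferase, was the only lower member, at 278 and 274 (-0.020).

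Deacetylase genes all lay within 0.12 of 0. Of 11 genes 6 were higher and 5 lower, beside 60.1% higher over all detected genes. Their median of 0.0096 lay below that of all detected genes, 0.027. Centring subtracts 0.027 from every gene and so had to turn the family median negative (-0.018). The family median was also negative with the intensity trend (-0.018) or gene span trend (-0.014) removed. In class I, Hdac1, Hdac2 and Hdac3 encode the nuclear enzymes of the Sin3, NuRD, CoREST and NCoR complexes. The 4 class I genes were all higher: Hdac8 (217 and 233, 0.094), Hdac2 (1185 and 1246, 0.071), Hdac1 (567 and 586, 0.048) and Hdac3 (1227 and 1235, 0.0096). Hdac3 was below 0 when centred or with either trend removed, so that 3 of 4 were then higher. Class IIa genes, whose products shuttle between nucleus and cytoplasm and bind MEF2, went both ways: Hdac9 (315 and 344, 0.12) and Hdac4 (291 and 300.3, 0.045, below 0 with the gene span trend removed) were higher, and Hdac5 (324 and 308, -0.071) and Hdac7 (243 and 229.6, -0.076) lower. Both class IIb genes were lower, namely the tubulin deacetylase gene Hdac6 (307 and 297, -0.047) and the polyamine deacetylase gene Hdac10 (154 and 146, -0.074). The class IV gene Hdac11 read 172 and 168 (-0.026). Grouping by class followed textbook classes and was made after the values were seen, and whether the classes differ was not tested.

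Bromodomain genes had the highest family median, 0.093 over 6 detected genes, which stayed between 0.058 and 0.095 under the scalings and offsets run. Over all detected genes the median was 0.027 and the 75th percentile 0.094, so the family median lay just under that percentile. Of the 6 genes 5 were higher, beside 60.1% of all detected genes. The value of 0.058 came with the gene span trend removed, where the median of all genes in use was 0.0014. The members other than Brd3 lay close together. They were Brd9 (273 and 294, 0.099) and Brd7 (491 and 526, 0.095) of the SWI/SNF remodellers, Brd8 of the TIP60 complex (231 and 248, 0.097), the BET gene Brd2 (707 and 754, 0.090) and Brd1, a scaffold of acetyltransferase complexes (296 and 314, 0.080). Brd3, the other BET gene read here, was lower at 459 and 439 (-0.062). The 5 higher genes thus lay between 0.080 and 0.099.

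All 8 KMT genes read higher with the HMGN1 virus, beside 60.1% of all detected genes and 67.7% in the members' middle span range. Their differences were 0.0077 to 0.17, with a median of 0.057. Removing the gene span trend left the median at 0.022 and turned Kmt2c and Kmt2e below 0. Kmt2e was also below 0 when centred, and Kmt2e and Kmt5c with the intensity trend removed. Kmt5a, which encodes the main enzyme for H4K20 monomethylation and is tied to the cell cycle, stood apart at 590.0 and 665 (0.17). The genes for the enzymes that extend that mark, Kmt5b and Kmt5c, read 386 and 408 (0.077) and 360.4 and 368 (0.030). The promoter-type H3K4 methyltransferase genes Kmt2a (879.9 and 920.0, 0.063) and Kmt2b (345 and 358, 0.050) and the enhancer-type genes Kmt2c (936 and 968, 0.048) and Kmt2d (461 and 482, 0.064) lay between 0.048 and 0.064. Kmt2e, a relative without clear methyltransferase activity, had the brightest probe set of the family and almost the same value on both arrays, 1474 and 1482 (0.0077). A second, dimmer probe set of Kmt2d read 115 and 114 (-0.013).

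SETD genes spread most, from -0.13 to 0.19, with 4 of 7 detected genes higher and 3 lower, beside 60.1% higher over all detected genes. Their median of 0.029 turned to -0.0073 with the intensity trend removed and -0.0016 with the gene span trend removed. Beside Setd3 and Setd6, described above, Setd2, whose product trimethylates H3K36, read 560.2 and 602 (0.10), and its second probe set read 493 and 553 (0.16). Both of its probe sets were thus higher. Setd7, whose product monomethylates H3K4 and several other proteins, read 362 and 387 (0.090). The H3K4 trimethylation genes Setd1a (323 and 330.3, 0.029) and Setd1b (519 and 507, -0.032) read on opposite sides of 0 by small amounts, though Setd1a was below 0 with either trend removed, and the second Setd1b probe set was lower too (-0.053). Setd5, a gene linked to intellectual disability, read 1313 and 1277 (-0.040).

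Among the demethylases, 10 of 17 detected genes were higher and 7 lower, beside 60.1% higher over all detected genes. Their median was 0.026, just under the 0.027 of all detected genes, and was therefore below 0 when centred (-0.0010). With the gene span trend removed it was -0.017. All 3 detected KDM4 genes, for demethylases of H3K9 and H3K36, were lower: Kdm4b (453 and 420.1, -0.11), Kdm4a (736 and 709.6, -0.051) and Kdm4c (333 and 325, -0.033). Both KDM6 genes, whose products remove the Polycomb mark H3K27 methylation, were lower too, Kdm6a at 609 and 569 (-0.097) and Kdm6b at 781 and 745 (-0.067). These 5 genes stayed below 0 under every scaling and offset run, all of the same 2 arrays. Over all detected genes 4354 of 11325 were lower. Kdm4a, Kdm4c and Kdm6b differed by less than 0.0891, the SD between probe sets of a gene.

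The demethylase genes on the higher side included both flavin-dependent enzymes, Kdm1b (199 and 222, 0.15) and Kdm1a (LSD1, 822 and 856, 0.058), the latter a partner of HDAC1 and HDAC2 in CoREST. All 4 KDM5 genes, for H3K4 demethylases, were higher, beside 60.1% of all detected genes. They were Kdm5a (524 and 571, 0.12), the X-linked Kdm5c (547 and 578, 0.079), Kdm5b (952 and 969, 0.026) and the Y-linked Kdm5d (154 and 157, 0.025). Kdm5b and Kdm5d were below 0 when centred and with the gene span trend removed, and Kdm5b also with the intensity trend removed. Kdm2a (566 and 607, 0.097), Kdm2b (292 and 301, 0.045), which guides Polycomb complexes to CpG islands and was below 0 with the gene span trend removed, and Kdm7a (882 and 926, 0.068) were higher as well. The KDM3 pair for H3K9 split, with Kdm3b at 916 and 972 (0.083) and Kdm3a at 664 and 627 (-0.081). Subfamilies were formed after the values were seen, and whether they differ from each other was not tested.

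CHD genes were higher in 9 of 10 cases, beside 60.1% of all detected genes and 67.7% in the members' middle span range. Medians of these 2 wider groups were 0.027 and 0.045. The CHD genes had a median of 0.048 (0.0049 with the gene span trend removed). Subfamily I led them: Chd1, which binds H3K4 trimethylation and accompanies transcription, read 273 and 309 (0.17), next to Chd2 described above. The NuRD ATPase genes were all higher, with Chd4 at 814 and 870.0 (0.095), Chd3 at 348 and 358 (0.041) and the neuronal Chd5 at 131 and 135 (0.036). In subfamily III, Chd8, an autism gene, read 456 and 489 (0.098), Chd6 546 and 561 (0.040) and Chd9 509.9 and 522 (0.034). The lower gene, Chd1l, encodes a PARP-dependent remodeller without chromodomains and lay just above the floor (-0.055). Chd5, Chd6 and Chd9 turned below 0 with the gene span trend removed.

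Chd7, the CHARGE syndrome gene, offers a view of how far probe sets of a single gene can differ, since it has 30 probe sets with 1 symbol, all detected. Its brightest read 2695 and 2802 (0.056). Over the 30, intensities ran from 293 to 2695 with the control virus and from 291 to 2802 with the HMGN1 virus. Their differences had a median of 0.059 and an SD of 0.0766, ranged from -0.082 to 0.20, and were positive in 22 and negative in 8. This range covers that of most members, and the SD is close to the 0.0781 among the 67 different genes. The 4 probe sets numbered next to each other from 4 to 7 in the array's order were among the 5 highest, at 0.15, 0.20, 0.16 and 0.19. This run was picked after the values were seen, and a difference by region of Chd7 was not tested. The sources used here do not say whether the array's order follows the transcript.

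**Figure D4:**
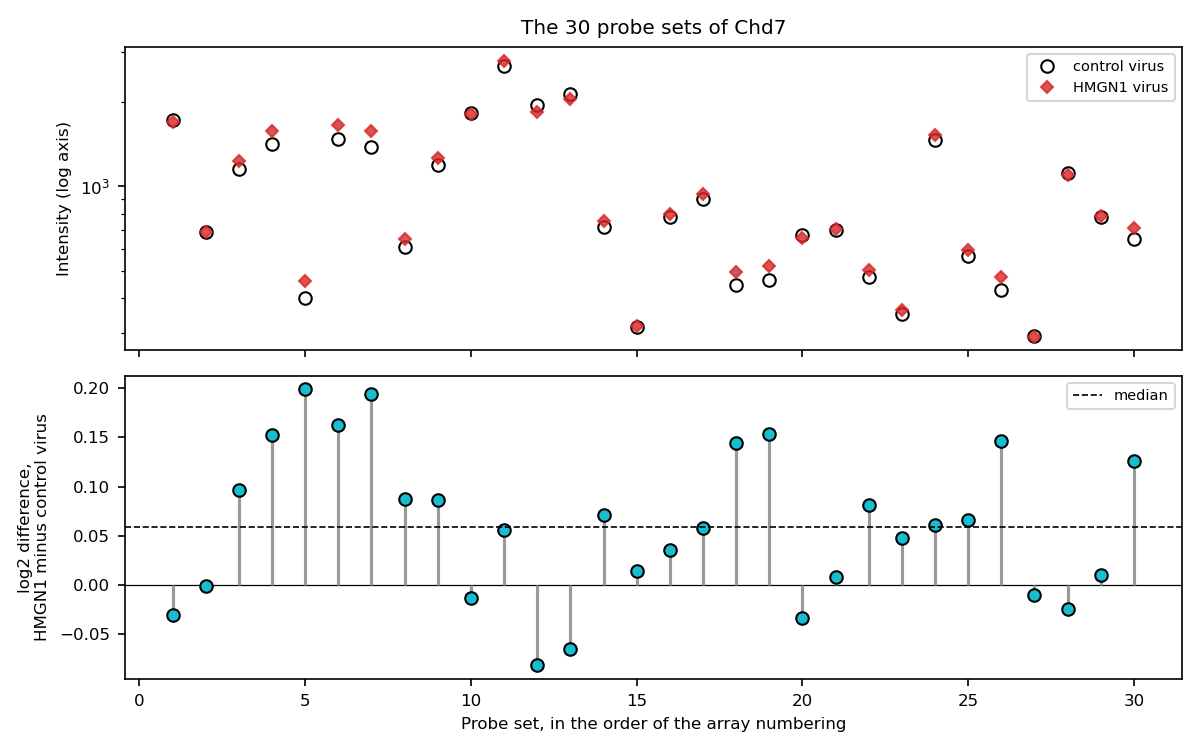
Intensity on both arrays (top, log axis) and log2 difference, HMGN1 virus minus control virus (bottom), of the 30 probe sets of Chd7 in the order of the array's numbering. The dashed line is their median of 0.059, and 8 probe sets lie below 0.

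A further 8 members had 2 probe sets, all detected. The pairs shared a sign in 6 genes: Chd6 (0.040 and 0.055), Hdac1 (0.048 and 0.032), Kdm7a (0.068 and 0.11), Setd2, Setd3 and Setd1b. They did not in Hdac4 (0.045 and -0.0074) and Kmt2d (0.064 and -0.013). Values of close paralogs and of genes with processed copies are uncertain, since such copies can bind the same probes.

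Other genes of the same pathways were read from 9 lists of enzymes with other names and of complex partners. Of 147 such genes on the array 137 were detected, 110 were higher (80.3%) and 25 lower, with a median of 0.051. Over all detected genes 60.1% were higher, with a median of 0.027. The related genes were also long, with a median span inside the members' middle span range. In that range 67.7% of detected genes were higher, with a median of 0.045. In the members' middle signal range 65.7% were higher, with a median of 0.039. The bromodomain readers outside the rule had a median span above the members' middle span range. The gene span trend was not removed for these lists, so an excess beyond that trend was not tested. None of the 137 was higher or lower by the 0.32 size, beside 0.494% and 0.521% of all detected genes, so this count too is near the general share. Smarca5, at -0.31, lay just inside it. Bromodomain readers outside the rule had a median of 0.092 (16 of 19 higher), close to the Brd genes, led by Zmynd11, a reader of H3K36 methylation on the variant H3.3 (792 and 920.5, 0.21), with the corepressor gene Trim28 lowest (785 and 751, -0.061). Acetyltransferases outside the rule were higher in 8 of 8 (median 0.049), from Hat1 (0.017) to Clock (0.10), with Ep300 (1147 and 1166, 0.024) and Crebbp (1719 and 1757, 0.031) between them. Partners of acetyltransferases had a median of 0.041 (20 of 28 higher), from Ing2 (-0.092) to Ing5 (0.18).

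Sirtuins had a median of 0.012 (4 of 7 higher), between Sirt6 (-0.062) and the tubulin deacetylase gene Sirt2 (1761 and 1958, 0.15), which is also a gene of maturing oligodendrocytes. Deacetylase complex partners had a median of 0.038 (19 of 23 higher), from Sap30 (518 and 478, -0.11) to Rcor1, the CoREST scaffold (336 and 386, 0.19). Partners of the KMT2 and SETD1 complexes had a median of 0.033 (11 of 13 higher). Their core subunit Ash2l (571 and 642, 0.16) was highest and Paxip1 (396 and 378, -0.067) lowest. Beside these lists, 60.1% of all detected genes were higher (median 0.027), and 67.7% in the members' middle span range (median 0.045).

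The next lists, too, stand beside 60.1% higher over all detected genes (median 0.027) and 67.7% in the members' middle span range (median 0.045). Methyltransferases outside the rule had a median of 0.056 (15 of 20 higher). Prdm16, a factor of radial glia, was highest (295 and 358, 0.27), and the arginine methyltransferase gene Carm1 lowest (827 and 807, -0.035). Demethylase relatives had a median of 0.023 (9 of 10 higher), with the Y-linked Uty highest (141 and 171, 0.25), where its X-linked homolog Kdm6a differed by -0.097, and Riox1 lowest (93.4 and 90.9, -0.033). Remodellers other than CHD had a median of 0.051 (8 of 9 higher), with Atrx highest (766 and 866, 0.17) and the ISWI gene Smarca5 (627 and 502, -0.31) lowest, the largest difference among the 67 members and the 137 related genes.

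**Figure D5:**
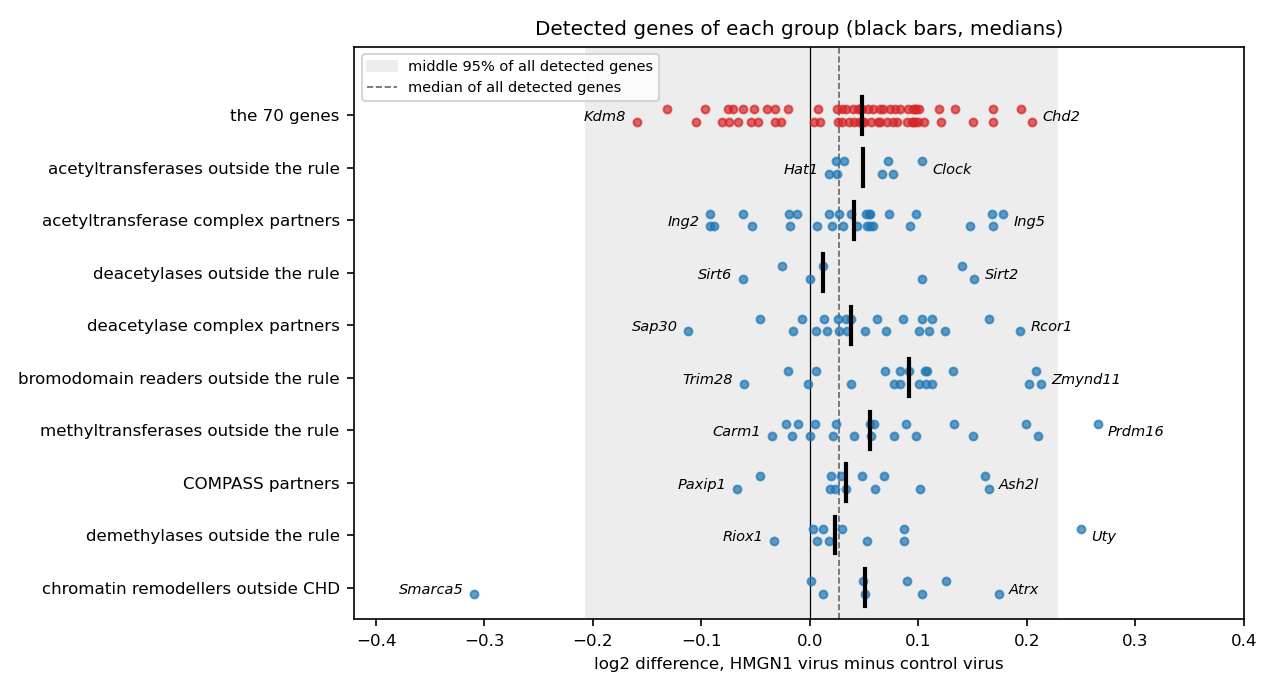
Log2 difference, HMGN1 virus minus control virus, of the detected members (red) and of detected genes in 9 related lists (blue), with black bars at the medians and the extreme genes named. Smarca5, Prdm16 and Uty are the points outside the grey band that holds the middle 95% of all detected genes.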

How the data were processed

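Total RNA of 2 cultures was labelled with biotin using a whole-transcript kit (per the labels) and read on 1-colour arrays. The values are the deposited linear intensity of 28944 probe sets on each array, with medians of 101 and 98.8. The sources used here do not give the authors' background correction, normalization or summary of probes, and no further normalization was applied. GEO's platform annotation gave 1 symbol for 21789 probe sets, several for 1621 and none for 5534. All 70 members matched the RefSeq table of GRCm38.p6 by gene number with unchanged symbols, which supplied span and promoters.

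Values were compared as log2(intensity + 16). Alternatives were quantile normalization, centring, loess removal (span 0.3) of the trend with intensity or with gene span, offsets of 1 and 64, other floors, averaging a gene's probe sets, and other sizes. Centring subtracted the median of all detected genes, 0.027, from every gene, so values between 0 and 0.027 turned negative by construction. The code was tested on simulated data. With 1 array per virus there are no residual degrees of freedom, and the number of arrays limits the precision.

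Members and lists were chosen with earlier results of these data known. The naming rule took, in each family, the extreme and the brightest genes, members with probe sets of opposite sign, a set of paralog groups, and the highest and lowest detected gene of each related list. The other members, Ep300 and Crebbp were named in addition. Python 3.11.15, numpy 2.4.6, pandas 2.3.3, scipy 1.17.1 and matplotlib 3.10.9 were used.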

Additional observations from a re-analysis of the deposited data

How the results depend on the processing

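Each setting changed 1 choice. The members' median difference, 0.048, stayed positive, from 0.0050 with the gene span trend removed to 0.049 with an offset of 1. It was 0.021 when centred and 0.017 with the intensity trend removed, so its size depends on the scaling. The shift on centring was fixed in advance, since the median of all detected genes was taken off every gene. Members exceeded that median by 0.021 both as reported and when centred. The number of higher members was 49 as reported, 44 when centred, 43 with the intensity trend removed and 36 with the gene span trend removed. In that order 73.1%, 65.7%, 64.2% and 53.7% of members were higher, beside 60.1%, 49.9956%, 51.2% and 50.7% of all genes in use. The share over all genes thus fell in these settings too. The members' share stayed above it, by least with the gene span trend removed. Counts past the 0.32 size were 0 in each direction under every scaling, offset and floor and at 1.5-fold, and became 5 higher and 1 lower at 1.1-fold, by construction. The median over all detected genes was 0.027 as reported and 0.0014 with the gene span trend removed, against 0.0050 for the members. Of 67 detected members 53 kept their sign under every scaling, offset and the mean of probe sets, 35 of them higher and 18 lower, and 14 small positive differences turned negative, 13 of them with the gene span trend removed. No single member moved by as much as 0.0891, the SD between probe sets of a gene. Chd2 was highest in every setting, and Kdm8 lowest except with the higher floor (99% of olfactory receptor probe sets), which removed it and left Setd6.

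No paired analysis was possible because there is a single array for each virus. Low signal limits Chd1l, Kat2b, Kdm8 and Chd5, whose probe sets lay nearest the floor of 85.9.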
